A study of Mus musculus with 4 samples.

Results

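Inositol phosphates are small signalling molecules built by a chain of kinases and taken apart by a set of phosphatases, and the kinase at the end of that chain, Ip6k1, was deleted in the cells studied here. The group described consists of 10 enzymes of this pathway, taken by name: Ip6k1, Ip6k2, Ip6k3, Ipmk, Ippk, Itpk1, Itpkb, Minpp1, Nudt3 and Nudt4. Of these, 9 had at least 1 probe under their gene name, among the 27827 gene names of the array, and Itpkb was not analysed here. Together they had 18 probes. A probe was tested where both lines of a genotype gave a signal that the scanner software called well above background, which held for 13 probes of 8 enzymes. The comparison asks whether the other enzymes of the pathway changed in RNA level where Ip6k1 was missing.

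Gene expression was compared between 2 Ip6k1+/+ and 2 Ip6k1-/- lines of mouse embryonic fibroblasts (MEFs), each line from its own littermate embryo at embryonic day 14 of heterozygous parents. All 4 lines were immortalised with SV40 large T antigen, a viral protein that inactivates the p53 and retinoblastoma proteins, and were growing exponentially at harvest. Each line gave 1 RNA sample, which was read in 1 colour on a whole-genome array by Agilent, with the 4 arrays side by side on 1 slide. With 2 lines per genotype, anything that set 1 embryo apart from another enters the spread of its genotype. It also enters the difference between the genotype means, where it cannot be told apart from genotype. The precision of each value is limited by the number of arrays.

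The pathway starts when phospholipase C cleaves a membrane lipid and releases inositol trisphosphate, which opens calcium channels of the endoplasmic reticulum. Inositol phosphate kinases then add phosphates around the ring: Itpkb and Ipmk phosphorylate inositol trisphosphate, Itpk1 acts on tris- and tetrakisphosphates, and Ippk adds the last ring position to give inositol hexakisphosphate (IP6). Ip6k1, Ip6k2 and Ip6k3 place a further phosphate on one already present and so make inositol pyrophosphates. Nudt3 and Nudt4 remove that extra phosphate, and Minpp1 removes ring phosphates from IP6 and its relatives. Ip6k1 and Ip6k2 are found in many tissues, and Ip6k3 mainly in muscle and brain.

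Signals are given below on a log2 scale relative to the 75th percentile of the same array, so that 0 marks a probe at that percentile and a difference of 1 is 2-fold. A probe's signal depends on its sequence, so levels are compared between lines for 1 probe and never between probes. On the 4 arrays, 52.0% to 55.5% of the probes passed as well above background. All 9 fibroblast markers examined, among them Col1a1, Pdgfra and Vim, were well above background in every line. None of the 4 skeletal muscle markers was, and the blood cell marker Ptprc, the endothelial markers Pecam1 and Cdh5 and the epithelial marker Cdh1 were not either. Of the other markers of such cells, Krt18, Krt19, Cd68, Cd3e, Kdr, Tubb3 and Nes were well above background in all 4 lines, and Epcam, Krt8, Vwf and Sox10 in 1 or 2.

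Because 2 of the 3 Ip6k1 probes lost their detected signal in Ip6k1-/- MEFs and the third kept one, the probes themselves are shown. All are 60 bases long, and the array files place them on chromosome 9 of the mm9 build. The first 2 overlap, and capitals mark the 40 bases that both contain. They lie at chr9:107948209-107948268 and chr9:107948229-107948288. The third lies at chr9:107950832-107950891, 2.54 kb beyond the end of the second. No annotation of that build was used here, so their exons are not given, and the part of Ip6k1 removed by the deletion is not given in the sources used here.
Ip6k1 A_51_P213766: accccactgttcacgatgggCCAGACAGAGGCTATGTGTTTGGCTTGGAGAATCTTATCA
Ip6k1 A_52_P413035: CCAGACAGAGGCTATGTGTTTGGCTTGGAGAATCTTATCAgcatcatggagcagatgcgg
Ip6k1 A_51_P103718: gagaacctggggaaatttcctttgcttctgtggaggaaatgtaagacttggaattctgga

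The paralog Ip6k2 lies on the same chromosome, 749 kb beyond the last Ip6k1 probe, and was read by 2 probes that lie 8.29 kb apart, at chr9:108708569-108708628 and chr9:108700223-108700282. They are shown because Ip6k2 is the only other enzyme of this activity with a measurable signal in these cells, and because their own values moved differently between lines. No bases are set in capitals, since the probes do not overlap.
Ip6k2 A_51_P257058: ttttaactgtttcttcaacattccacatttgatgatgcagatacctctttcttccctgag
Ip6k2 A_52_P78033: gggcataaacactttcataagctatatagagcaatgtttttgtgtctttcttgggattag

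Among the 13 tested probes of the 8 enzymes, only those of Ip6k1 differed between the genotypes by more than the mean gap between the lines of a genotype. With 2 lines per genotype, that means that the lines of the genotypes did not overlap. By the probe with the highest mean, the gap exceeded the difference for 68.7% of all gene names. Both Ip6k1-/- lines lay above both Ip6k1+/+ lines for 18.1% of them and below for 13.2%. For some other enzymes, such as Nudt3, the difference exceeded the gap between the Ip6k1-/- lines but not that between the Ip6k1+/+ lines. Ip6k1 probe A_51_P213766 read 0.35 and 0.39 in the Ip6k1+/+ lines against -6.88 and -6.80 in the Ip6k1-/- lines, values that did not clear the background. Probe A_52_P413035 read 0.22 and 0.41 in the Ip6k1+/+ lines against -7.00 and -6.90 in the Ip6k1-/- lines, which again did not clear the background. On both probes the Ip6k1-/- lines lay together far below the Ip6k1+/+ lines, and neither of them was detected.

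A signal that is not well above background gives only a limit on the fold change. Here the Ip6k1+/+ mean was divided by the mean of the lowest signals that counted as well above background on the 2 Ip6k1-/- arrays. By this rule Ip6k1+/+ MEFs had an at least 34.8-fold higher signal on A_51_P213766 and an at least 33.5-fold higher one on A_52_P413035. Some other probes that were not well above background read higher than that lowest signal, so the limit holds by this rule only. The differences of the measured values, -7.21 (standard error 0.31) and -7.27 (standard error 0.32), are therefore not estimates of how far the transcript fell. Both probes entered the test only through the Ip6k1+/+ lines, and both passed it in limma after Benjamini-Hochberg adjustment over the 21573 probes tested, with an adjusted p of 0.0356 and lower values in 2 of 2 Ip6k1-/- lines. The p rests in part on Ip6k1-/- values without a measured level, and with a filter of all 4 arrays neither probe was tested. Since they share 40 bases, they are not independent readings. With 1 array left out at a time, the adjusted p in limma rose to between 0.266 and 0.694 and the call was lost, while the differences stayed between -7.37 and -7.17. With normexp, another background correction, the differences were -3.63 and -3.72 and neither probe was called. The third probe differed by -3.77 under that correction and was not called either.

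Probe A_51_P103718 kept a measurable signal in every line. It read 2.46 and 2.61 in the Ip6k1+/+ lines against -1.98 and -1.23 in the Ip6k1-/- lines, and was well above background in all 4. In linear units these were intensities of 3349 and 4547 against 155 and 290. The Ip6k1-/- lines did not overlap the Ip6k1+/+ lines, yet both kept a signal, which the overlapping probes did not show.

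The difference on this probe was -4.13 (standard error 0.33), a 17.5-fold lower signal, with a 95% interval from -5.00 to -3.26. Its p was 8.53e-05 before adjustment and its adjusted p was 0.368 in limma, so that it did not pass across all probes. The Ip6k1-/- lines were 0.76 apart on this probe, and the Ip6k1+/+ lines 0.15. A probe outside the deleted part would not check the labels, and which of the 3 lie inside it is not known here. On all 3, both lines labelled Ip6k1-/- read lower than both lines labelled Ip6k1+/+.

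**Figure D1:**
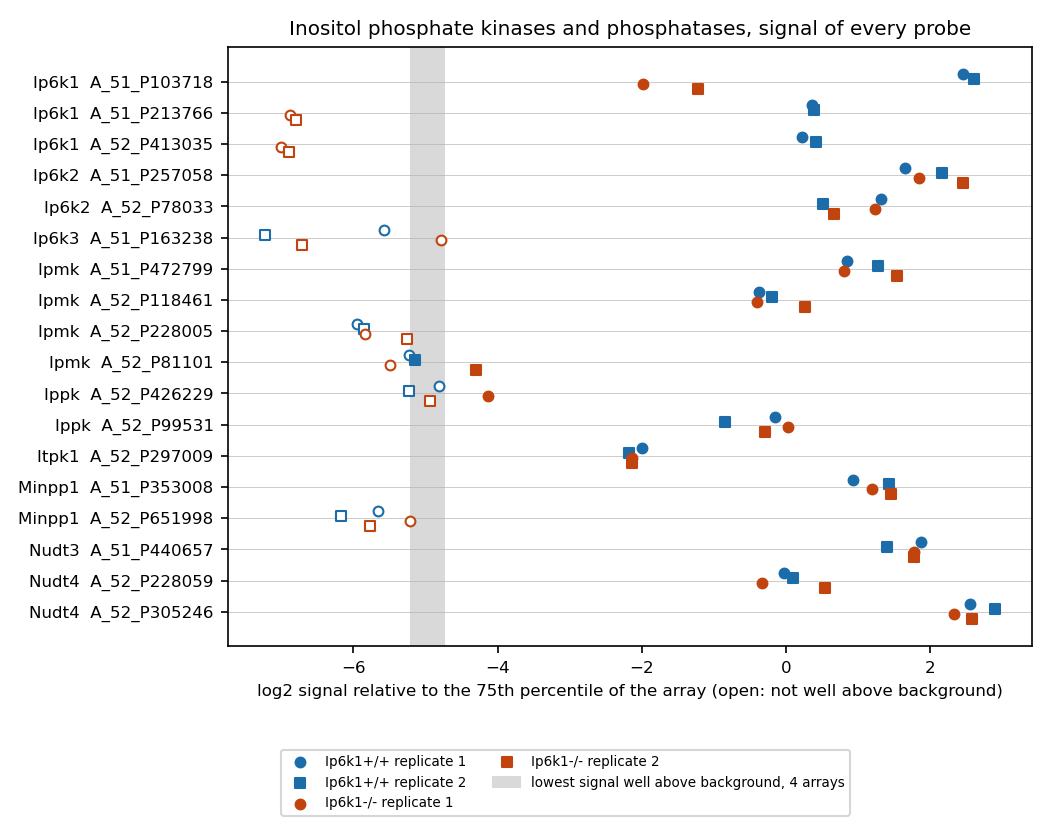
Log2 signal of every probe of the 9 enzymes with a probe, relative to the 75th percentile of its array, with 1 point per line (blue for Ip6k1+/+, orange for Ip6k1-/-, circles for replicate 1 and squares for replicate 2). Open symbols are not well above background, and the grey band spans the lowest signals that were, from -5.20 to -4.74. The orange points stand apart from the blue ones on the 3 Ip6k1 probes, and the 2 genotypes are interleaved on the probes that are measurable in all lines for the other enzymes.

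None of the other enzymes passed the test in either direction. In limma, 1 of the 8 enzymes tested had a probe at an adjusted p of 0.05 or less, namely Ip6k1, lower in Ip6k1-/- MEFs, and none was called higher. That call rests on the 2 overlapping probes, while A_51_P103718, the only Ip6k1 probe measured in all 4 lines, had the adjusted p of 0.368 in limma given above. Over all 14335 gene names tested, 0.014% were called lower and 0% higher. At an unadjusted p under 0.05, limma again gave Ip6k1 alone among the 8 enzymes, beside 2.65% of gene names lower and 1.76% higher. The methods' t-test, which the study names for its other assays and which was run here per probe, gave without adjustment the same counts, 1 lower and 0 higher, beside 2.53% of gene names lower and 2.91% higher. By the 2-fold cutoff, Ip6k1 was lower and no enzyme higher, against 5.2% of gene names lower and 2.53% higher.

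Ip6k2 and Ip6k3 carry the same activity as Ip6k1. Ip6k2 probe A_51_P257058 read 1.65 and 2.17 in the Ip6k1+/+ lines against 1.85 and 2.45 in the Ip6k1-/- lines. Ip6k2 probe A_52_P78033 read 1.32 and 0.51 in the Ip6k1+/+ lines against 1.24 and 0.67 in the Ip6k1-/- lines. The genotypes overlapped on both probes, but the probes ordered the lines in opposite ways: replicate 2 was the higher line of each genotype on the first and the lower line of each genotype on the second.

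The Ip6k2 differences were 0.24 (standard error 0.32, 95% interval from -0.60 to 1.08) and 0.04 (standard error 0.38, interval from -0.96 to 1.04), with adjusted p-values in limma of 0.993 and 0.995. The intervals reach just past a 2-fold rise of Ip6k2, to 2.11-fold and 2.05-fold, and a larger rise lies outside both. They are not adjusted for the number of probes, so that they do not mark the smallest rise the test could detect. The single Ip6k3 probe read -5.58, -7.23, -4.79 and -6.72 in Ip6k1+/+ replicates 1 and 2 and Ip6k1-/- replicates 1 and 2. It was not well above background in any of them, so no Ip6k3 signal was measurable in either genotype and no fold change is given.

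Upstream of IP6, Ipmk is a kinase of broad specificity that acts on tris- and tetrakisphosphates and also on a membrane lipid. Its probe A_51_P472799 read 0.85 and 1.27 in the Ip6k1+/+ lines against 0.81 and 1.54 in the Ip6k1-/- lines. Its probe A_52_P118461 read -0.37 and -0.19 against -0.41 and 0.26. On both, the Ip6k1-/- lines held the lowest and the highest value, so that the Ip6k1+/+ lines lay between them.

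The differences for Ipmk were 0.11 (standard error 0.34, interval from -0.78 to 1.01) and 0.21 (standard error 0.32, interval from -0.64 to 1.06). The 2 other Ipmk probes were at the edge of detection. A_52_P228005 stayed below it in every line, and A_52_P81101 was well above background in replicate 2 of each genotype only, at -5.14 in Ip6k1+/+ and -4.30 in Ip6k1-/- MEFs.

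Ippk is the kinase that makes IP6, the substrate of Ip6k1. Its probe A_52_P99531 read -0.15 and -0.85 in the Ip6k1+/+ lines against 0.03 and -0.29 in the Ip6k1-/- lines. The difference of 0.37 (standard error 0.35, interval from -0.54 to 1.27) was the largest positive difference in the group, and it was smaller than the gap of 0.70 between the Ip6k1+/+ lines. It was 0.71 without Ip6k1+/+ replicate 1 and 0.02 without Ip6k1+/+ replicate 2. The other Ippk probe, A_52_P426229, was well above background in Ip6k1-/- replicate 1 only, at -4.13.

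Itpk1, which phosphorylates and also isomerises tris- and tetrakisphosphates, differed least between lines among the enzymes tested. Its 1 probe read -2.00 and -2.19 in the Ip6k1+/+ lines against -2.14 in each Ip6k1-/- line. The difference was -0.05 (standard error 0.29, interval from -0.81 to 0.72).

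Of the phosphatases, Minpp1 was read by A_51_P353008 at 0.93 and 1.42 in the Ip6k1+/+ lines against 1.19 and 1.45 in the Ip6k1-/- lines. The difference was 0.14 (standard error 0.27, interval from -0.57 to 0.86). The genotypes overlapped, and the other Minpp1 probe had no signal well above background.

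Nudt3 and Nudt4 are the phosphohydrolases that take the pyrophosphate products of Ip6k1 back to IP6. Nudt3 read 1.86 and 1.40 in the Ip6k1+/+ lines against 1.77 in each Ip6k1-/- line, and differed by 0.14 (standard error 0.25, interval from -0.51 to 0.78). Both Ip6k1-/- values lay between the Ip6k1+/+ values.

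Nudt4 probe A_52_P305246 read 2.55 and 2.90 in the Ip6k1+/+ lines against 2.32 and 2.58 in the Ip6k1-/- lines. Its difference of -0.27 (standard error 0.23, interval from -0.88 to 0.33, unadjusted p-value in limma of 0.294) had the smallest p among the enzymes other than Ip6k1. Nudt4 probe A_52_P228059 read -0.04 and 0.09 against -0.33 and 0.54, and differed by 0.08 (standard error 0.37, interval from -0.88 to 1.04). The probes of Nudt4 thus differed in sign, and on both the genotypes overlapped.

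**Figure D2:**
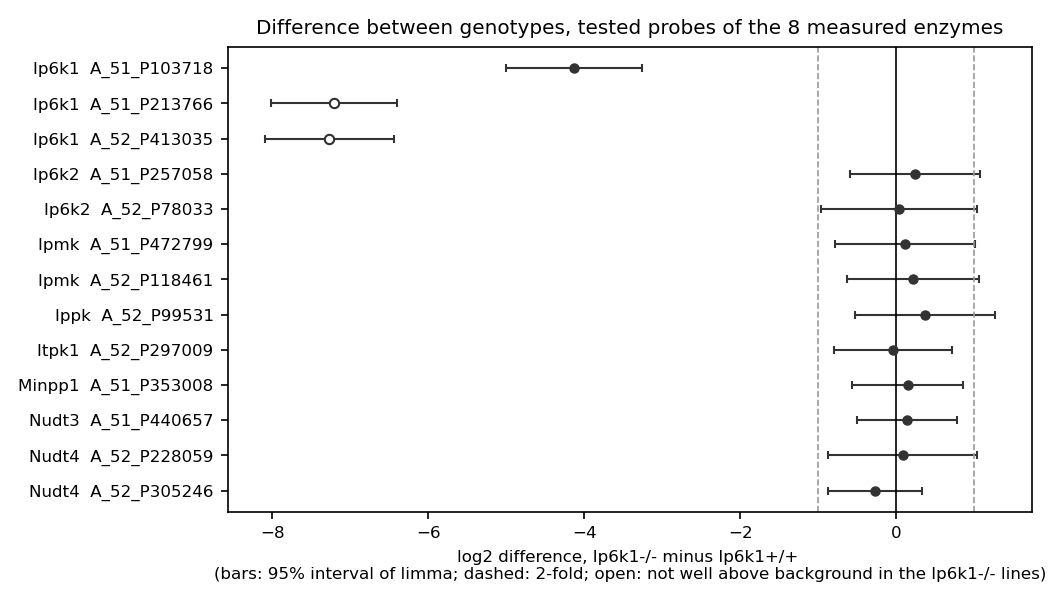
Difference in log2 signal, Ip6k1-/- minus Ip6k1+/+, for the 13 tested probes of the 8 measured enzymes, with the 95% interval of limma, from 2 lines per genotype. Dashed lines mark a 2-fold change, and open points mark the Ip6k1 probes without a detected signal in the Ip6k1-/- lines, whose position is no estimate. The 10 probes of the other enzymes lie between -0.27 and 0.37, and every interval among them contains 0.

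Over these 10 probes of the 7 enzymes other than Ip6k1, the differences ran from -0.27 to 0.37, the standard errors from 0.23 to 0.38 and the adjusted p-values in limma from 0.993 to 0.995. All 10 intervals lay above a 2-fold fall. Only 4 of them, those of Itpk1, Minpp1, Nudt3 and Nudt4 probe A_52_P305246, also lay below a 2-fold rise, and the other 6 reached it. The highest upper end was 1.27, a 2.41-fold rise, for Ippk. These intervals are not adjusted for the number of probes and are no limit of detection. With 2 lines per genotype, Ip6k1 probe A_51_P103718 was not called after adjustment even at -4.13. A p that missed the threshold does not show that the lines were alike.

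By the probe with the highest mean, the median difference of the 7 enzymes was 0.14, beside 0.04 over all gene names tested. Without 1 array in turn it ran from -0.05 to 0.20 and changed its sign. It was -0.02 without Ip6k1+/+ replicate 1 and -0.05 without Ip6k1-/- replicate 2. For 7 of 7 enzymes the lines of the 2 genotypes overlapped. Among all gene names both Ip6k1-/- lines lay above both Ip6k1+/+ lines for 18.1% and below for 13.2%.

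The larger differences for these enzymes were between lines of 1 genotype. Ip6k2 probe A_52_P78033 differed by 0.80 between the Ip6k1+/+ lines, and Nudt4 probe A_52_P228059 by 0.87 between the Ip6k1-/- lines. On 6 of the 10 probes replicate 2 was the higher line in both genotypes, on 3 it was the lower line in both, and on 1, for Itpk1, the genotypes went opposite ways. By 1 probe per enzyme, the sign was shared for 6 of 7, or 85.7%, beside 63.1% of all gene names. The labels do not say that equal numbers mark anything common to the lines. In RNA from whole cultures, fewer cells that express a gene and less of its RNA per cell cannot be told apart.

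**Figure D3:**
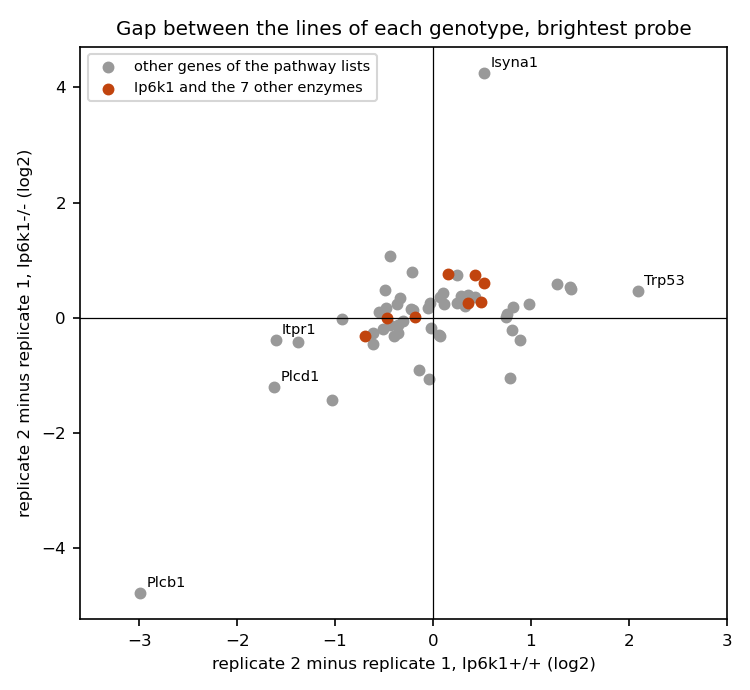
Difference between the lines of a genotype, replicate 2 minus replicate 1 on the log2 scale, in Ip6k1+/+ (horizontal) and Ip6k1-/- MEFs (vertical), with 1 point per gene for its tested probe with the highest mean. Orange points are Ip6k1 and the 7 other enzymes, grey points the other genes of the pathway, and genes beyond 1.5 on either axis are named. The enzymes lie within 1 of 0 on both axes, while Plcb1 and Isyna1 lie far from the others.

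Around these enzymes, 65 further genes of inositol phosphate metabolism were listed by role, of which 63 had a probe and 51 were tested. In limma none was called in either direction. At an unadjusted p under 0.05, 0 were higher and 1 was lower, and the methods' t-test without adjustment gave 1 in each direction, beside the 2.91% of all gene names higher and 2.53% lower by that test. Over all 14335 gene names tested, 7879 were higher and 6456 lower, with a median difference of 0.04. Of the 51 genes, 27 were higher and 24 lower, with a median difference of 0.01. By the 2-fold cutoff 1 was higher, Nolc1, and 2 were lower, Plcb1 and Itpkc, beside the 2.53% and 5.2% of all gene names past it. No gene had each Ip6k1-/- line past the cutoff on its own.

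**Figure D4:**
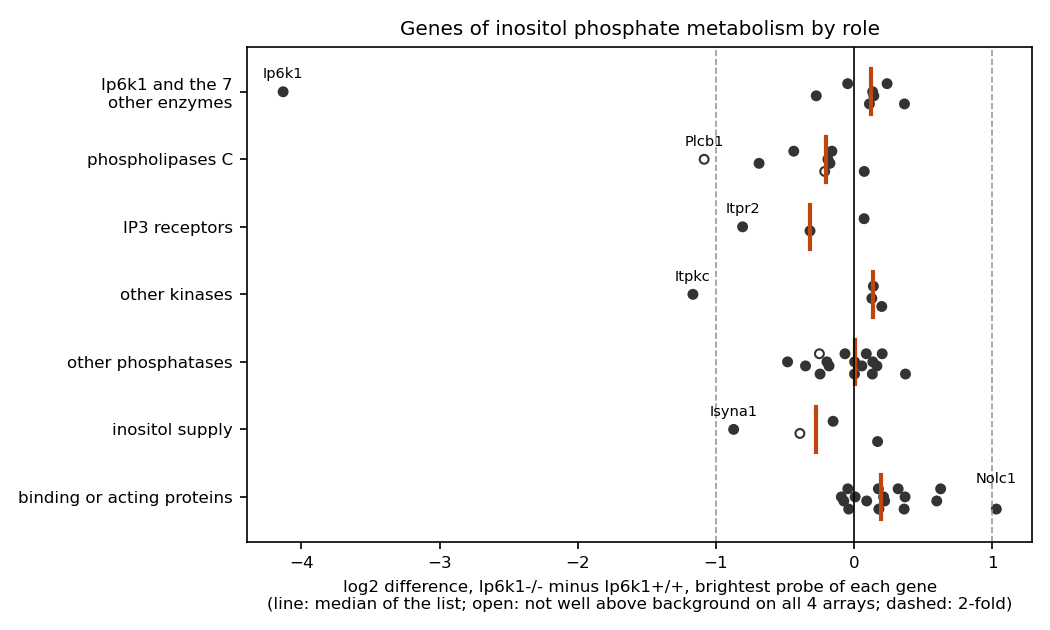
Difference in log2 signal, Ip6k1-/- minus Ip6k1+/+, for the tested probe with the highest mean of each gene, by role in the pathway, with the median of each list as an orange line. Open points were not well above background on all 4 arrays, and dashed lines mark 2-fold. Ip6k1 lies at -4.13, and all other genes lie between -1.17 and 1.03.

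Phospholipases C supply the first substrate. Of 13 genes, 8 were tested, with a median difference of -0.20, and none passed the test. Of these 8, 7 were lower, beside the 6456 of 14335 gene names given above. Plcg1, which acts below growth factor receptors, differed by -0.03 and 0.07 on its probes, and Plcb3, which acts below G protein-coupled receptors, by -0.17. Plcd1 read 3.65 and 2.03 in the Ip6k1+/+ lines against 2.75 and 1.55 in the Ip6k1-/- lines. Its difference of -0.69 was smaller than the gap between the lines of either genotype.

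Plcb1 differed more between the lines of a genotype than between genotypes. Probe A_51_P284665 read -1.90 and -4.89 in the Ip6k1+/+ lines against -2.08 and -6.87 in the Ip6k1-/- lines, where replicate 2 was not well above background. The difference of -1.08 had a standard error of 1.86. On 2 of its other 3 probes Plcb1 was well above background in replicate 1 of both genotypes only, and on the remaining one in Ip6k1+/+ replicate 1 only.

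Of the inositol trisphosphate receptors, the calcium channels that the first product opens, Itpr2 was the gene of the pathway lists with the smallest p. Its probe A_51_P500051 read 2.36 and 2.34 in the Ip6k1+/+ lines against 1.63 and 1.45 in the Ip6k1-/- lines. Its probe A_51_P500056 read -0.12 and 0.15 against -0.69 and -0.94. On both, the Ip6k1-/- lines lay below the Ip6k1+/+ lines.

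The Itpr2 differences were -0.81 (standard error 0.20, interval from -1.33 to -0.28) and -0.83 (standard error 0.27), with unadjusted p-values in limma of 0.0113 and 0.0290 and an adjusted p of 0.993, so that neither passed. It was 1 of 51 genes with an unadjusted p under 0.05, against the 2.65% of all gene names given above. The 3 other Itpr2 probes were each well above background in 1 line, and on 1 of them, A_52_P494207, that was Ip6k1-/- replicate 2 at -1.78. Itpr1 differed by -0.32 and -0.27 on its probes with overlapping lines, and Itpr3 by 0.07, at 5.05 and 5.01 against 5.64 and 4.57.

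Among the other kinases, Itpkc phosphorylates inositol trisphosphate as Itpkb does. Its probe A_51_P507622 read 1.86 and 0.48 in the Ip6k1+/+ lines against 0.22 and -0.21 in the Ip6k1-/- lines. The difference was -1.17 (standard error 0.52, interval from -2.52 to 0.19), with an unadjusted p-value in limma of 0.0771 and an adjusted p of 0.993. The Ip6k1-/- lines lay below both Ip6k1+/+ lines, but Ip6k1+/+ replicate 1 stood 1.38 above replicate 2.

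Itpka, of the same family, differed by 0.14. Ppip5k1 and Ppip5k2 place a pyrophosphate at another position of the ring and act together with the IP6 kinases. Ppip5k1 differed by 0.46 and 0.20 on 2 probes and Ppip5k2 by 0.11, 0.13 and 0.31 on 3, with overlapping lines on all 5.

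Of 21 other phosphatases, 16 were tested, with a median difference of 0.00. Of these, 9 were higher and 7 lower, beside the 7879 and 6456 of all gene names. Impa1, the monophosphatase that returns free inositol and is inhibited by lithium, read 3.67 and 3.44 in the Ip6k1+/+ lines against 3.85 and 4.00 in the Ip6k1-/- lines on A_52_P13537. On A_51_P242056 it read -2.91 and -2.74 against -2.22 and -2.29. Both Ip6k1-/- lines lay above both Ip6k1+/+ lines on each probe. The genotype means differed by 0.37 and 0.57, with unadjusted p-values in limma of 0.114 and 0.121, so that neither passed. The related Impa2 differed by -0.48, the other way.

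Inppl1 differed by 0.14, and Inpp1 by 0.09 and -0.03. Nudt10 and Nudt11 are close relatives of Nudt4. Nudt10 had no signal well above background. Nudt11 was well above background in Ip6k1-/- replicate 2 alone, where its probes read -1.48 and -2.00, while they lay between -7.20 and -5.71 in the other 3 lines, so that the genotypes overlapped.

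Of the genes that supply inositol, 4 of 6 were tested, with a median of -0.27. Isyna1, which makes inositol from glucose phosphate, read 1.32 and 1.84 in the Ip6k1+/+ lines against -1.41 and 2.84 in the Ip6k1-/- lines. The Ip6k1-/- lines thus held the lowest and the highest value, 4.25 apart, and the difference of -0.87 had a standard error of 1.41. Slc5a3, the sodium-coupled inositol importer, differed by 0.21 and -0.15.

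The list of proteins that bind or act with inositol phosphates or their kinases had the highest median, 0.20. Of its 16 genes, 12 were higher and 4 lower, and none passed the test. Of all 14335 gene names tested, 7879 were higher, with the median of 0.04 given above. Nolc1, a nucleolar protein, read 1.65 and 2.92 in the Ip6k1+/+ lines against 3.03 and 3.61 in the Ip6k1-/- lines on A_52_P463109. The difference was 1.03 (standard error 0.49, interval from -0.24 to 2.30, unadjusted p-value in limma of 0.0910), and its other probe differed by 0.55. The Ip6k1-/- lines lay above the Ip6k1+/+ lines on both probes.

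Csnk2a1, a catalytic subunit of casein kinase 2, differed by 0.50, 0.34 and 0.37 on 3 probes. The lines overlapped on the probe with 0.34, where the Ip6k1+/+ lines were 1.20 apart. Akt1, a kinase inhibited by inositol pyrophosphates, differed by 0.36 and 0.33. Its lines overlapped on the probe with 0.36, where the Ip6k1+/+ lines were 0.61 apart. Ap3b1, an adaptor subunit that these molecules modify, differed by -0.09, and Xpr1, a phosphate exporter that binds them, by -0.07 and -0.16. Over the 51 tested genes, both Ip6k1-/- lines lay above both Ip6k1+/+ lines for 4 and below for 5, beside the 18.1% and 13.2% of all gene names given above.

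The lines of the 2 genotypes overlapped for 42 of the 51 tested pathway genes, or 82.4%, beside 68.7% of all gene names. A further 3 genes, which were not tested, are named after their values were seen. Plce1, a phospholipase C that Ras-family proteins bind, read -0.39 in replicate 1 and -5.04 in replicate 2 of the Ip6k1+/+ lines, and -0.33 and -6.73 in those of the Ip6k1-/- lines on A_51_P137029. Inpp4b, a lipid phosphatase, read -3.40 and -7.39 in the Ip6k1+/+ lines against -3.45 and -6.69 in the Ip6k1-/- lines on A_51_P225933. Both genes were well above background in replicate 1 of each genotype and in neither replicate 2. Slc2a13, the proton-coupled inositol importer, followed no replicate number, with -2.65 and -5.49 in the Ip6k1+/+ lines against -5.56 and -2.18 in the Ip6k1-/- lines. It was well above background in Ip6k1+/+ replicate 1 and Ip6k1-/- replicate 2. None of the 3 entered the tests, because no genotype had both lines well above background.

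**Figure D5:**
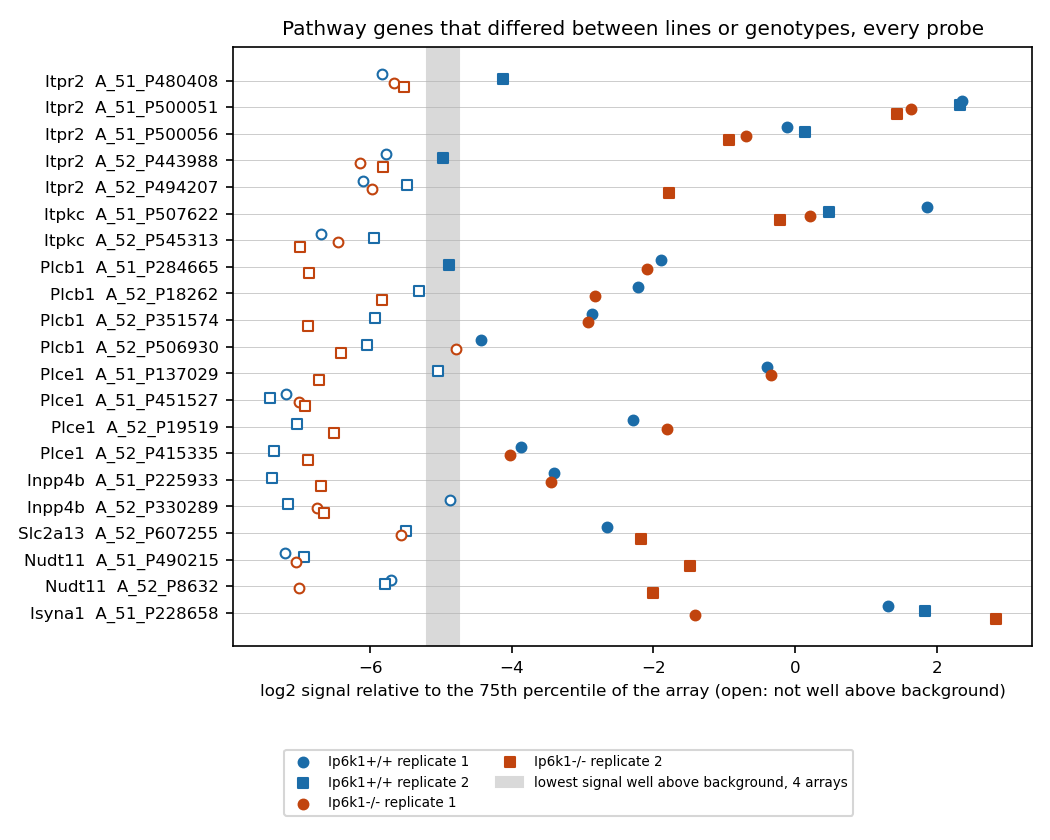
Log2 signal, relative to the 75th percentile of its array, of every probe of 8 pathway genes, with 1 point per line and symbols as in the plot of the enzymes by array. On their probes with a detected signal, Plcb1, Plce1 and Inpp4b lie high in the circles, the replicate 1 lines, Nudt11 is high in the orange square alone, and Isyna1 is lowest in the orange circle. The orange points lie below the blue ones on the Itpr2 probes that are measurable in all 4 lines.

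The patterns most like that of Ip6k1 were looked for among 21168 probes well above background in both Ip6k1+/+ lines, by the Euclidean distance over the 4 log2 values from A_51_P103718, each centred on its Ip6k1+/+ mean. The nearest gene names were C330011K17Rik, Heyl, Meox1, Kcnk1 and Mpped2, at distances from 0.55 to 1.23. Heyl and Meox1 encode transcription factors and Kcnk1 a potassium channel subunit. None of the 5 was well above background in either Ip6k1-/- line, so that their differences, from -4.08 to -3.40, depend on values without a measured level, while A_51_P103718 was measured in all 4 lines. No order is read from these distances. Their adjusted p-values in limma were 0.470 or above. None of the other enzymes of the group was among them, which their differences of -0.27 to 0.37 had already settled.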

How the data were processed

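Total RNA of 2 Ip6k1+/+ and 2 Ip6k1-/- MEF lines was labelled with Cy3 and hybridized to single-colour Agilent arrays. The authors deposited spot intensity from Feature Extraction 10.5.1.1, background-corrected and on a linear scale, with a flag for signals well above background, and log2 values normalized in GeneSpring by a 75th percentile shift. Here the processed signal was taken to log2 and shifted by the 75th percentile over the 43379 non-control spots of its array. Outlier spots, 96 to 133 per array, were left out, and spots of 1 probe were averaged to 41174 probes. The genotype means were tested in limma 3.58.1 (R 4.3.3; lmFit, then eBayes with trend), and p-values were adjusted by Benjamini-Hochberg over the 21573 probes that were well above background in both lines of a genotype. The test was checked on simulated data with independent noise of the spread fitted here. That check does not show how small a difference the test could call in these lines.

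Enzymes were matched by gene name, with Ihpk1, Ihpk2 and Ihpk3 as older names of Ip6k1, Ip6k2 and Ip6k3. A gene counted as called if any probe was, and was summarised by its tested probe with the highest mean. Of the pathway lists, the text names a fixed set of genes, those past 2-fold, and the largest difference of each list; 1 gene of the set is not reported here. The enzymes and lists were chosen with earlier results of these data known. Coordinates and the mm9 build are per the file headers. The arrays share 1 slide and 1 scan. Alternatives were other background corrections and normalizations, the deposited log2 values, other filters, a floor on dim values, outlier spots kept, a replicate block, other tests and probe rules, and each array left out in turn. Using only the probe with the highest mean for the 2-fold count was added after seeing the data.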

Additional observations from a re-analysis of the deposited data

How the results depend on the processing

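Ip6k1 was 1 of 8 enzymes lower past 2-fold under every alternative run, and no other enzyme passed 2-fold or was called by limma under any. The limma call of Ip6k1 was lost, to 0 enzymes, with normexp, quantile normalization, no filter on dim probes, a filter of all 4 arrays (which leaves out both overlapping probes), the methods' t-test after adjustment, a floor on dim values, the mean of the probes of a gene, and each array left out (range 0 to 0). It was kept with the deposited log2 values, the median shift, outlier spots kept, no variance trend and probes matched by accession. On A_51_P213766 the difference was -3.63 with normexp, -7.37 with quantile normalization, -5.12 with the floor and -7.21 with no filter and with the adjusted t-test, with adjusted p-values of 0.125, 0.0740, 0.141, 0.243 and 0.750. On A_52_P413035 it was -3.72, -7.43, -5.06, -7.27 and -7.27, with 0.136, 0.0740, 0.141, 0.243 and 0.833. Without 1 array these differences ran from -7.26 to -7.17 and from -7.37 to -7.17. Among the alternatives, probe A_51_P103718 passed only the methods' t-test without adjustment, at -4.13. Before adjustment its p in limma was also under 0.05, at 8.53e-05. The mean of the 3 Ip6k1 probes differed by -6.21 (adjusted p = 0.0888 in limma).

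For the other enzymes, 138 of 150 alternatives kept the sign, none passed the test, and 12 reversed the sign of 8 of 10 probes, 11 of them by leaving out 1 array. Without 1 array, the differences ran from -0.060 to 0.54 for Ip6k2 A_51_P257058, -0.36 to 0.44 for Ip6k2 A_52_P78033, -0.25 to 0.48 for Ipmk A_51_P472799, -0.12 to 0.54 for Ipmk A_52_P118461, -0.14 to 0.046 for Itpk1, -0.10 to 0.39 for Minpp1, -0.097 to 0.37 for Nudt3 and -0.36 to 0.51 for Nudt4 A_52_P228059. The sign was kept for Ippk, from 0.017 to 0.71, and for Nudt4 A_52_P305246, from -0.45 to -0.095. With the median shift Itpk1 was 0.0014.

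For the pathway genes, the methods' t-test without adjustment called 1 higher and 1 lower. Past 2-fold, the 1 higher gene became 0 with quantile normalization, with the mean of the probes and where each Ip6k1-/- line had to pass, 4 with no filter, and 0 to 3 without 1 array. The 2 lower genes became 1 with normexp, the filter of all 4 arrays and the floor, 0 where each line had to pass, and 1 to 4 without 1 array. The extremes came from leaving out Ip6k1+/+ replicate 1 (0 higher, 1 lower) and replicate 2 (3 higher, 4 lower), and replicates 1 and 2 of Ip6k1-/- gave 4 and 1 lower. The cause of these shifts was not tested.

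The labels do not say that replicate numbers pair the lines, and the differences between replicates 1 and 2 correlated between genotypes (r = 0.48 over 21573 probes, which are not independent). With a replicate block, 1 enzyme and 0 pathway genes were called lower and none higher, and the block changed no other call. A slide block was not run because there is 1 slide. The Ip6k3 signal had no measured level in any line, so a change there was not detectable. The other untested dim probes were well above background in some lines or none, but never in both lines of a genotype. Changes on them were not tested.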
